A study of Mus musculus with 4 samples.

Results

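The unconventional myosin genes Myo6, Myo15, Myo3a, Myo3b, Myo1c, Myo1h, Myo5a, Myo10 and Myo9a, were followed in sorted cells of the newborn mouse cochlea. They were taken by name, with Myo7a left out and no threshold on a value, although earlier results of these data were known when the list was drawn up. All 9 were among the 23420 genes listed, and all 9 reached the minimum of 100 estimated reads over the 12 replicates that 16088 genes reached.

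Messenger RNA was sequenced from 4 groups of cells, with 3 replicates in each. The cells came from cochleae of Atoh1-GFP transgenic mice of the CD1 strain, dissected on postnatal day 1 and kept overnight as whole-organ cultures. GFP-positive hair cells (HC) and GFP-negative non-hair cells (NHC) were sorted from untreated control organs and from organs given 0.5 mM gentamicin, an aminoglycoside antibiotic that kills hair cells, for 3 h. The comparisons ask how mRNA levels in each population differ after this short exposure, and how the populations differ from each other. All 4 groups carried the transgene. The GFP is driven by an Atoh1 enhancer, so a cell counts as a hair cell here by GFP brightness, and cells with weak GFP (inner phalangeal cells) were gated out. Each replicate is a pool of cells from several organs, inner and outer hair cells together, and NHC is a mixture of supporting cells, ridge cells and surrounding tissue. In such bulk samples, fewer cells of a type and less RNA per cell cannot be told apart.

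Each replicate held 22399605 to 28150982 estimated reads on genes. Values are given as normalized read scores, which are reads scaled to a common depth with 1 added and no division by gene length, so a score of 1 means no read. The 12 hair cell marker genes together scored 9128 to 9367 in HC control and 184 to 356 in NHC control, and all 12 were higher in HC in both states. The 10 supporting cell markers together were not depleted in HC relative to NHC, with a summed score of 1766 to 2179 in HC control and 1216 to 1866 in NHC control. Of the 10, 3 were higher in HC control, 1 was lower and 6 were not called. As NHC is a mixture, these sums do not measure how many supporting cells were carried over. The paper reports high purity of the sorted hair cells by MyosinVI staining. Mesenchyme markers summed to 174, 441 and 184 in HC control replicates 1, 2 and 3, so replicate 2 stood above the others. They summed to 89.2 to 142 in HC gentamicin and to 4729 to 8910 across both NHC groups.

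Unconventional myosins are motors that walk along actin filaments and, unlike the myosin II of muscle, do not assemble into thick filaments. Hair cells depend on them because the stereocilia that detect sound are packed with actin: some myosins carry scaffold and bundling proteins to the stereocilia tips, some anchor the membrane at their base, and others move vesicles or act at filopodia in many cell types. Mutations in Myo6, Myo15 and MYO3A cause deafness in mice or humans.

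The positions below are those of the GRCm38 (mm10) mouse assembly, and all 9 genes lie on the plus strand. Myo6, which encodes a motor that walks toward the minus end of actin, spans chr9:80165031-80311729. Myo15, which encodes the stereocilia tip motor myosin XVA, spans chr11:60469339-60528369. The class III genes Myo3a and Myo3b, whose motors carry a kinase domain and bring espins to the tips, lie on one chromosome at chr2:22227503-22618252 and chr2:70039126-70429198. The class I genes are Myo1c at chr11:75650504-75673910 and Myo1h at chr5:114289166-114365357. Myo5a, the vesicle and melanosome motor, spans chr9:75071015-75223688. Myo10, the filopodia motor, spans chr15:25622525-25813673. Myo9a, which joins a motor to a GTPase-activating domain, spans chr9:59750896-59928866.

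The DNA just upstream of the 4 genes that were highest in hair cells is shown. All 4 were higher in hair cells than in non-hair cells and yet have unlike start regions. Each stretch is the plus strand from the RefSeq promoter table (GRCm38.p6), read up to the base before the annotated transcript start, and capitals mark a motif match. The stretches are chr9:80164784-80165030 for Myo6, chr11:60469089-60469338 for Myo15, chr2:22227253-22227502 for Myo3a and chr2:70038876-70039125 for Myo3b.
Myo6: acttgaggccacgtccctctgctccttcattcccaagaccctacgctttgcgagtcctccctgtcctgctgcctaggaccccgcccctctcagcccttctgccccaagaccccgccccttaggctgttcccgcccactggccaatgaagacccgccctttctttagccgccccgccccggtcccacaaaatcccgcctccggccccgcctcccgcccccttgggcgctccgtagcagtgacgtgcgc
Myo15: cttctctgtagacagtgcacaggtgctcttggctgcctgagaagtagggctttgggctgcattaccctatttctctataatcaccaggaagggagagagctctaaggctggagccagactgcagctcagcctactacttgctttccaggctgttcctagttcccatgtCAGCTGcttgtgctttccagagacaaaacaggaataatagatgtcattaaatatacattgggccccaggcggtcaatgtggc
Myo3a: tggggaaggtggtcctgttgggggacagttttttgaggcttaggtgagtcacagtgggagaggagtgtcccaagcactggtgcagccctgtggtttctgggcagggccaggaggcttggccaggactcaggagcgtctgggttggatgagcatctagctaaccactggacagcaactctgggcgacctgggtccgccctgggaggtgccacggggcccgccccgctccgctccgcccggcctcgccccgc
Myo3b: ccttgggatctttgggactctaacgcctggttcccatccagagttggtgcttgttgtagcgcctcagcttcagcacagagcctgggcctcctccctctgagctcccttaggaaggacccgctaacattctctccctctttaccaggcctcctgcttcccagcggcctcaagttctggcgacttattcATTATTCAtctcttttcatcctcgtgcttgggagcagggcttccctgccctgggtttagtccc

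In the 250 bases before the RefSeq start, the Myo6 window held 18 CpG dinucleotides and the Myo3a window 11, whereas Myo3b had 6 and Myo15 had 1. Myo1h, which was also higher in hair cells, had 10. Among the myosins that were not higher in hair cells, Myo5a had 34, Myo9a 29, Myo10 17 and Myo1c 2. The CpG ranges of the myosins higher and not higher in hair cells overlapped. Not all windows lie before the annotated gene start, however. The Myo9a window lies wholly inside the gene, and only 59 of the 250 Myo5a bases and 163 of the 250 Myo1h bases lie before it. The CpG counts of these 3 windows are thus partly or wholly from inside the gene. E-boxes in 2 forms (CAGCTG and CAGATG, the class of site bound by factors such as Atoh1) and the TATA box letters TATAAA were searched on both strands of the 9 windows. One match was found, a CAGCTG 82 bases before the Myo15 start. CAGCTG occurred in 13.0% of all 32851 promoter windows of the same length, CAGATG in 14.4% and TATAAA in 12.4%, so a match in one window of 9 is a description only.

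One 8-base word, TGAATAAT, which was picked after the sequences had been read, occurred on the minus strand of the Myo3b and Myo1h windows and in 0.819% of all windows. It lay 63 bases before the Myo3b start and 30 bases before a Myo1h start, and overlapped none of the other motifs. That Myo1h start lies past the annotated gene start at chr5:114289166, so the Myo1h match is inside the gene and not upstream of it. The 30 plus-strand bases around it, chr2:70039052-70039081 and chr5:114289212-114289241, are given with its plus-strand letters in capitals.
Myo3b: gcgacttattcATTATTCAtctcttttcat
Myo1h: tcccagtatgaATTATTCAccgctctatac

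Between the untreated populations, 5 of the 9 myosins were higher in hair cells and 4 were lower. All 9 passed an adjusted p of 0.05 (limma, Benjamini-Hochberg over all genes tested), a level that 74.0% of the 16088 tested genes reached, 31.9% of them higher in hair cells and 42.1% lower. Passing the test therefore said little about the myosins, and the sizes of the differences are what set them apart from one another. The median difference of the 9 was 4.45 on the log2 scale, against -0.12 over all genes, and it is the same with Myo3a, which had no read in NHC control, set at its bound.

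Myo6 scored 4405, 4203 and 4501 in the 3 HC control replicates and 222, 200 and 181 in the NHC control replicates. Each hair cell value lay far above each non-hair cell value, by 4.45 ± 0.14 on the log2 scale (SE, 21.8-fold, adjusted p = 2.5e-10, limma). By estimated reads, Myo6 ranked 2nd, 2nd and 1st among all genes in HC control and 1st in each of the 3 HC gentamicin replicates, taking 0.408% to 0.443% of the reads. Per kb of exon, over its 12078 exon bases, it ranked between 34 and 60 in the same libraries.

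Among the 9, Myo6 was also the hair cell myosin with the most signal in the non-hair cells. Its NHC control level was 4.57% of its HC control level after removing the offset, compared with 0.0870% for Myo15, 0.470% for Myo3b and 1.19% for Myo1h. The NHC libraries also held some hair cell marker signal, with sums of 184, 345 and 356 in control replicates 1, 2 and 3 and of 173, 97.4 and 306 in gentamicin replicates 1, 2 and 3. Myo6 scored 222, 200 and 181 in the former and 207, 285 and 190 in the latter. Calb2 made the largest part of the control sums, with a mean score of 189 in NHC control. Cdh23 followed at 52.4 and Pvalb at 33.1. Otof, Atoh1, Gfi1, Lhx3 and Pou4f3 averaged 4.38, 1.38, 1.12, 1.13 and 1.11 there, where 1 means no read. The control sums therefore mostly follow Calb2 and are not a count of hair cells. The part of hair cells in the NHC level of Myo6 was not tested.

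Myo15 had the widest gap between populations among the 8 genes with reads in both. It scored 1077, 1206 and 1183 in HC control against 1.70, 2.23 and 2.08 in NHC control, a difference of 9.18 ± 0.19 (adjusted p = 8.2e-12, limma). The 3 NHC control libraries held 76 Myo15 reads in all. So close to the offset of 1 the size of the gap depends on it. Over 18 alternatives the difference ran from 7.59 to 10.17 for Myo15, from 5.90 to 7.76 for Myo3b and from 4.01 to 6.44 for Myo1h, lowest with an offset of 5 and called in each.

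Myo3a had no read in any NHC control replicate. In HC control it scored 182, 171 and 194, which is at least 1517-fold higher when each NHC library is set at the 3 reads that a count of 0 allows. In NHC gentamicin it had 0, 3 and 8 reads. Myo3b scored 398, 399 and 427 in HC control and 2.32, 2.94 and 3.47 in NHC control, and the groups were 7.15 ± 0.23 apart (adjusted p = 2.2e-10, limma). Both class III genes were thus read almost wholly from the sorted hair cells.

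The class I pair went opposite ways. Myo1h scored 93.9, 101 and 89.5 in HC control and 2.02, 1.72 and 2.60 in NHC control, 5.51 ± 0.15 higher in hair cells (adjusted p = 4.7e-11, limma). Myo1c, long studied as a candidate adaptation motor of the transduction channel, scored 8.98, 14.2 and 9.33 in HC control and 77.5, 81.6 and 75.6 in NHC control. It was therefore lower in hair cells by 2.88 ± 0.16 (7.37-fold, adjusted p = 1.8e-08, limma), with no overlap.

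Myo1h shares 1530 of its 5927 exon bases with Kctd10 on the opposite strand, and the counting is not stated to use strand, so reads in that stretch cannot be told apart. Kctd10 itself scored 107 to 113 in HC control and 90.1 to 91.9 in NHC control, a level present in both populations, while Myo1h was near the lowest score in NHC. Smaller overlaps lie in Myo3b (70 bases, Gm13631, same strand) and Myo9a (225 bases, Gm20275 and Gm48805, opposite strand), and the other 6 genes share no exon base.

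The 3 myosins with broad roles were close to the non-hair cell level or below it. Myo5a scored 33.8, 43.0 and 33.3 in HC control and 97.2, 125 and 127 in NHC control, a difference of -1.66 ± 0.14 (adjusted p = 5.7e-07, limma). Myo10 scored 67.8, 68.7 and 82.1 against 87.0, 93.9 and 117, which was -0.44 ± 0.13 (adjusted p = 0.0093, limma). Both were lower in hair cells in each replicate.

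Myo9a was nearly level, at 88.2, 85.7 and 88.8 in HC control and 95.5, 106 and 99.5 in NHC control. Its difference of -0.19 ± 0.081 (adjusted p = 0.048, limma) sat just inside the threshold. The call was lost in 11 of 18 alternatives, among them 5 of the 6 fits without a replicate (adjusted p up to 0.15, limma) and median-of-ratios scaling (-0.070), which moved the median of all genes in this comparison by 0.12. The gentamicin-treated populations showed no Myo9a difference that passed the test (-0.082, 95% interval -0.26 to 0.097).

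**Figure D1:**
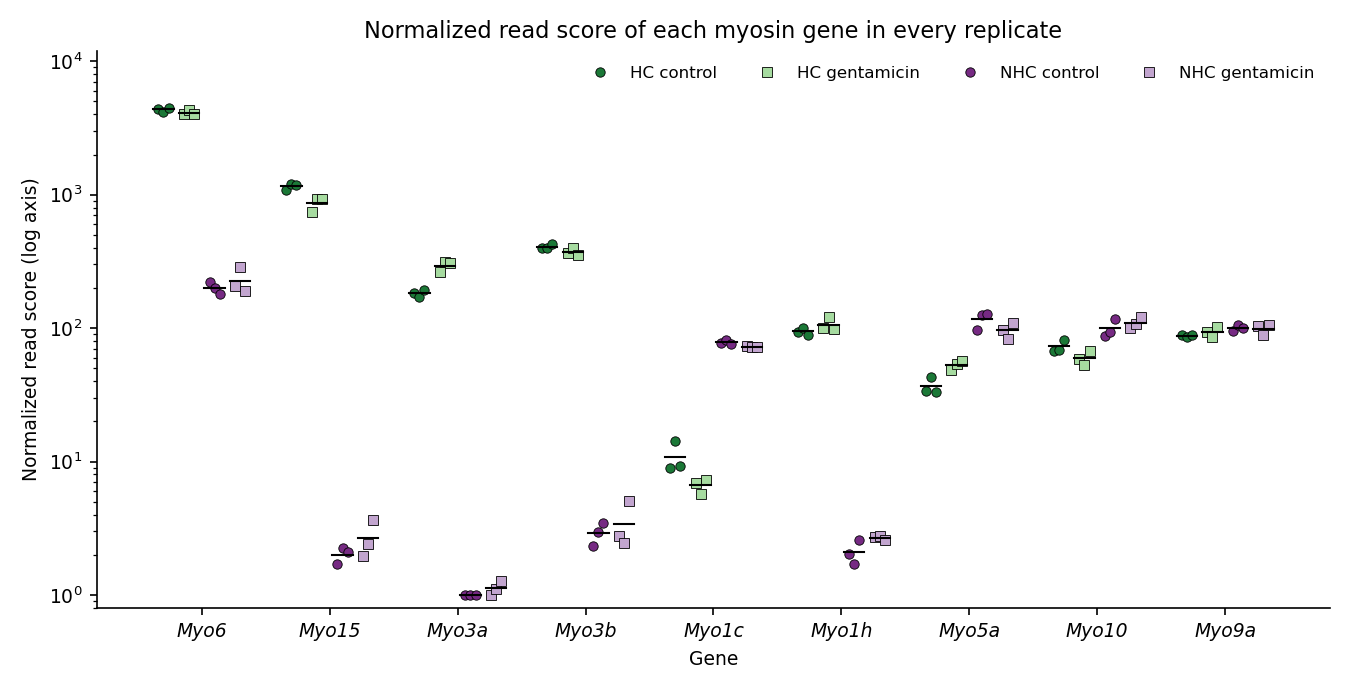
Normalized read score (log axis, 1 means no read) of each of the 9 myosin genes in every replicate, circles for control and squares for gentamicin, green for hair cells and purple for non-hair cells, with a short line at each group mean. Myo6, Myo15, Myo3a, Myo3b and Myo1h stand high in hair cells, Myo1c and Myo5a stand higher in non-hair cells, and Myo9a is nearly level across all 4 groups.

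**Figure D2:**
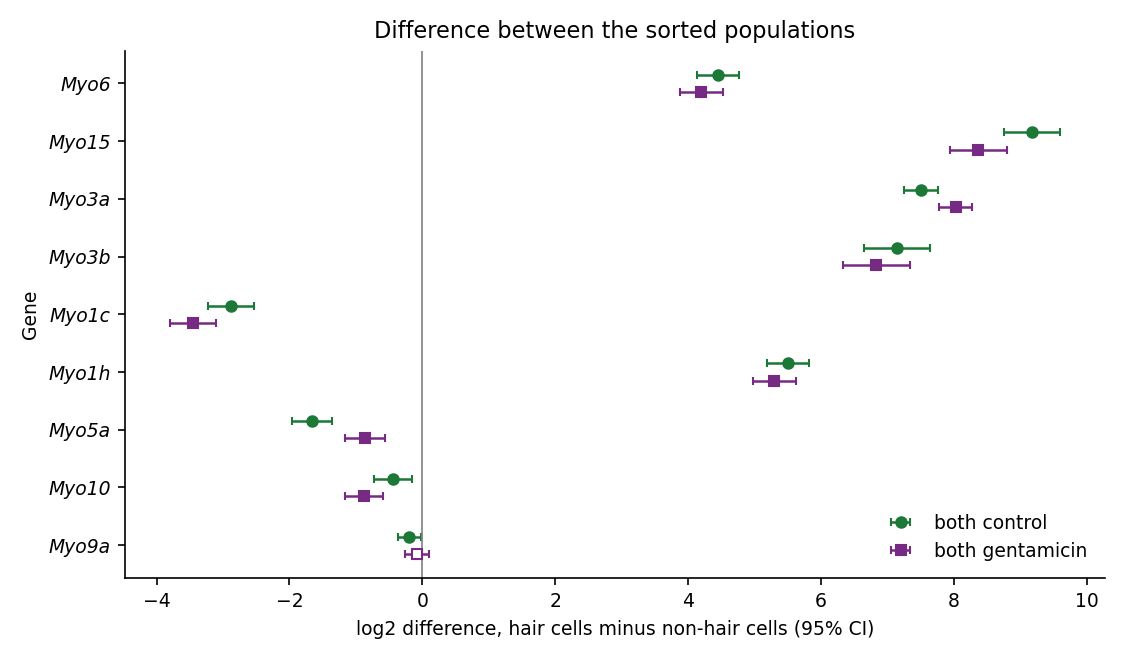
Difference in log2 score, hair cells minus non-hair cells, for each gene with its 95% confidence interval from limma, circles for the control groups and squares for the gentamicin groups, filled where the adjusted p was under 0.05. The values run from -2.88 (Myo1c) to 9.18 (Myo15) in the control groups, and the open square at -0.082 is Myo9a after gentamicin.

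After gentamicin, 8 of the 9 genes still differed between the populations at an adjusted p of 0.05, where 78.1% of all tested genes did (34.6% higher and 43.5% lower in hair cells), and Myo9a was the exception. The same 5 were higher in hair cells, by 4.20 for Myo6, 8.37 for Myo15, 8.03 for Myo3a (a value that depends on the offset, with 0, 3 and 8 reads in NHC), 6.84 for Myo3b and 5.30 for Myo1h. Myo1c was lower by 3.46 on the log2 scale, Myo10 by 0.88 and Myo5a by 0.86. Of these, the gap of Myo5a was 3.17-fold in control and 1.82-fold after gentamicin.

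Levels of different genes were compared as estimated reads per kb of exon per 1000000 reads. In HC control the order was Myo6 (351 ± 11.6, SD, n = 3), Myo15 (87.7 ± 5.36), Myo3b (56.1 ± 2.19), Myo3a (22.1 ± 1.37), Myo1h (15.3 ± 0.942), Myo10 (6.88 ± 0.759), Myo9a (6.44 ± 0.112), Myo5a (2.34 ± 0.364) and Myo1c (1.45 ± 0.436). Myo10 and Myo9a overlapped, and every other pair of neighbours was apart in all replicates. The order after gentamicin was the same except that Myo9a (7.37 ± 0.655) came before Myo10 (6.01 ± 0.816), and these again overlapped.

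On the same scale, the order in NHC control began with Myo6 (16.3 ± 1.60). Myo1c (11.6 ± 0.454), Myo10 (9.61 ± 1.62), Myo5a (7.70 ± 1.16) and Myo9a (7.52 ± 0.419) followed, each overlapping with the next. The remaining hair cell myosins came last, with Myo3b at 0.269, Myo1h at 0.185, Myo15 at 0.0778 and Myo3a at 0. Myo3b and Myo1h overlapped.

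Together the 9 genes took 0.622% ± 0.0155 of all reads in HC control and 0.618% ± 0.0242 in HC gentamicin (SD, n = 3), a difference smaller than the SD of either group (exact permutation test, two-sided, p = 1.00). Myo6 alone made up 66.9% to 70.6% of these reads in hair cells. In the non-hair cells the 9 took 0.0587% ± 0.00180 in control and 0.0608% ± 0.00293 after gentamicin (SD, n = 3; exact permutation test, two-sided, p = 0.40). With 3 replicates against 3 this test cannot go below 0.10. The sums are thus largely Myo6 in hair cells, and this test cannot show a shift or its absence.

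In hair cells after gentamicin, Myo3a and Myo5a rose, Myo1c fell, and the other 6 myosins did not meet the criteria. A gene met the criteria with a fold change over 1.2 and an unadjusted p under 0.01, as 27.5% of all tested genes did, 12.7% rising and 14.8% falling. With scaling by total reads, the split over all genes moved from 2037 higher and 2381 lower to 2775 higher and 1591 lower. The 3 of 9 called here is near that background. The median change of the 9 was -0.084 on the log2 scale, against -0.086 over all genes.

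Myo3a scored 182, 171 and 194 in HC control and 264, 314 and 306 in HC gentamicin. Every treated replicate lay above every control replicate, and the rise was 0.69 ± 0.11 on the log2 scale (1.61-fold, adjusted p = 0.0012, limma). With an offset of 0.1 in place of 1, the change was 0.69 with an adjusted p of 0.16 (limma), and the call was lost. The spread in that fit is shared with the NHC libraries, which held 0 to 8 Myo3a reads each. The call was kept in the other 17 of 18 alternatives. Its class partner Myo3b, which scored 398, 399 and 427 in control, scored 363, 401 and 353 after treatment. These groups overlapped, and the change of -0.13 (95% interval -0.63 to 0.37) did not pass the test.

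The balance within class III differed between the groups. Per kb of exon, Myo3a made up 28.3% ± 0.734 of the class III level in HC control and 41.1% ± 2.15 in HC gentamicin (SD, n = 3). The control replicates lay at 27.5% to 28.8% and the treated replicates at 39.1% to 43.4%. The groups did not overlap, and the exact permutation test (two-sided) gave p = 0.10, the smallest that 3 against 3 allows. As a share within each library, this value does not depend on how the libraries were scaled.

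**Figure D3:**
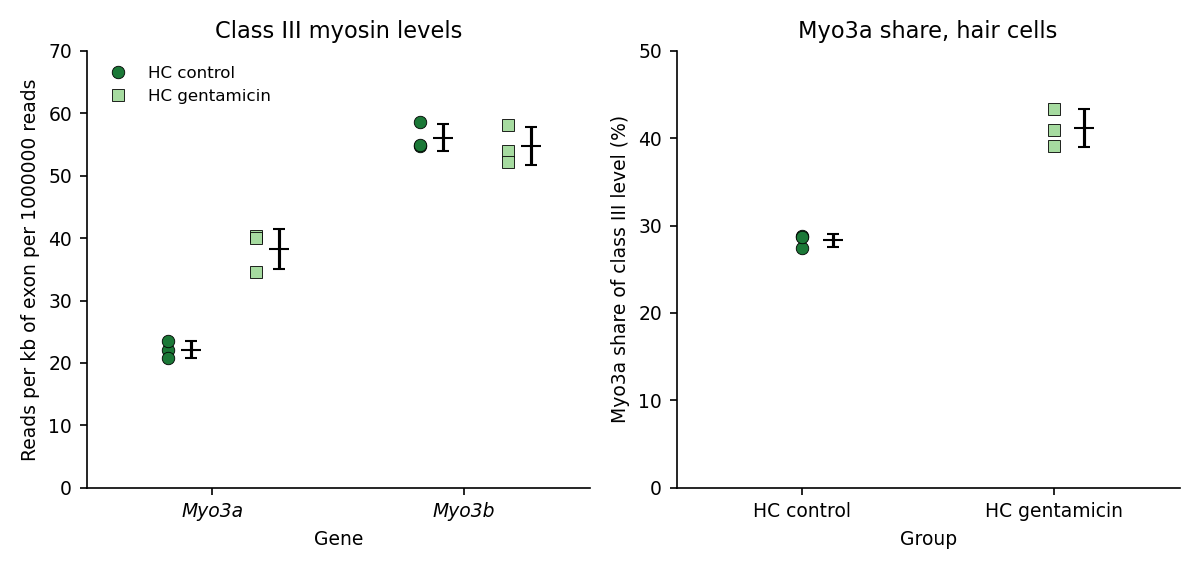
Left, estimated reads per kb of exon per 1000000 reads of Myo3a and Myo3b in the hair cell groups; right, the share of Myo3a in their sum. Points are replicates, and the bars give mean and SD (n = 3). Myo3a goes from 22.1 to 38.3 reads per kb and from 28.3% to 41.1% of the sum, while Myo3b overlaps between groups.

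Myo15 scored 1077, 1206 and 1183 in HC control and 739, 924 and 923 in HC gentamicin. All 3 treated values were below all 3 control values, with a change of -0.43 ± 0.19, but the adjusted p was 0.11 (limma, unadjusted 0.049), which did not meet the criteria. In a fit of the 2 hair cell groups alone, without the non-hair cells where Myo15 is near 1, the same change had an SE of 0.12 and an adjusted p of 0.022 (limma) and met them. The summed score of the 12 hair cell markers was also lower after gentamicin, at 7024 to 7901, although none of the 12 met the criteria. The spread in that fit is shared with the NHC libraries, so a missed call does not show that a marker held its level. Changes of the 12 markers went both ways, from -0.51 to 0.50 on the log2 scale with a median of -0.23. Cdh23 had a mean score of 820 in HC control and 575 in HC gentamicin, and Atoh1 had 209 and 296, both without overlap. In estimated reads, which are not scaled for depth, Otof, the marker with the most reads, averaged 88430 in HC control and 73368 in HC gentamicin. Atoh1 averaged 4728 and 7505 such reads. The part of the lower sum in the Myo15 values was not tested. Myo6, by contrast, showed overlapping groups, with 4009, 4330 and 4032 after treatment and a change of -0.084 (95% interval -0.40 to 0.23) that became 0.013 with scaling by total reads.

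Myo1c scored 8.98, 14.2 and 9.33 in HC control and 6.85, 5.74 and 7.31 in HC gentamicin. The treated values were all lower, by 0.68 ± 0.16 on the log2 scale (1.61-fold, adjusted p = 0.0071, limma). Behind these scores stood 181 to 310 reads per control replicate and 113 to 177 per treated replicate. The control replicate with the highest Myo1c, replicate 2, was also the one with the highest mesenchyme sum.

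Several marker sums of other cell types were lower in HC gentamicin than in HC control. The counts of falling markers stand beside the 14.8% of all tested genes that fell in this comparison. Mesenchyme markers (2 of 6 fell) were at 174 to 441 in control and 89.2 to 142 after gentamicin, supporting cell markers (4 of 10 fell) at 1766 to 2179 and 798 to 1482, and glia markers (2 of 5 fell) at 222 to 266 and 114 to 190. Endothelium markers (1 of 5 fell) were at 12.3 to 21.1 and 6.60 to 11.5. The part of these cells in the Myo1c change was not tested. Without HC control replicate 2, Myo1c was lower by 0.47 ± 0.11 (adjusted p = 0.013, limma), which still met the criteria. In the fit of the 2 hair cell groups alone it missed them, with an unadjusted p of 0.010 and an adjusted p of 0.030 (limma).

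Myo5a scored 33.8, 43.0 and 33.3 in HC control and 48.5, 53.9 and 56.5 in HC gentamicin, higher in every treated replicate by 0.54 ± 0.14 (1.45-fold, adjusted p = 0.013, limma). In control its level was 3.17-fold higher in the non-hair cells. The 5 markers of melanocytes, cells known for high Myo5a, summed to 9.30 to 12.3 in HC control and 6.55 to 7.83 in HC gentamicin. Most of these sums came from Tyr and Pmel, at 126 and 106 mean reads in HC control and 153 and 168 in NHC control. Dct, with 275 mean reads in NHC control, had 3.33 in HC control and 5.67 in HC gentamicin. The 6 macrophage markers summed to 2.95 to 4.22 in HC control and 3.83 to 5.39 in HC gentamicin. The 5 neuron markers summed to 1037 to 1226 and to 978 to 1121 in these groups. The part of other cells in the Myo5a change was not tested. Leaving out HC control replicate 1, HC control replicate 3 or HC gentamicin replicate 3 put the unadjusted p just above 0.01 (0.012, 0.013 and 0.012), with changes of 0.48, 0.47 and 0.49 (adjusted p = 0.049, 0.051 and 0.042, limma).

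Myo1h, Myo10 and Myo9a did not meet the criteria in hair cells. Myo10 scored 58.8, 52.5 and 67.5 after gentamicin, just under the control values, a change of -0.29 ± 0.13 (adjusted p = 0.11, limma). Myo1h scored 100, 120 and 98.4 (0.16, adjusted p = 0.42) and Myo9a scored 93.4, 86.2 and 101 (0.093, adjusted p = 0.41), both overlapping with control. Counting all 9, the replicates of 5 genes did not overlap between the hair cell groups (Myo15, Myo3a, Myo1c, Myo5a and Myo10), as for 54.8% of all tested genes.

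**Figure D4:**
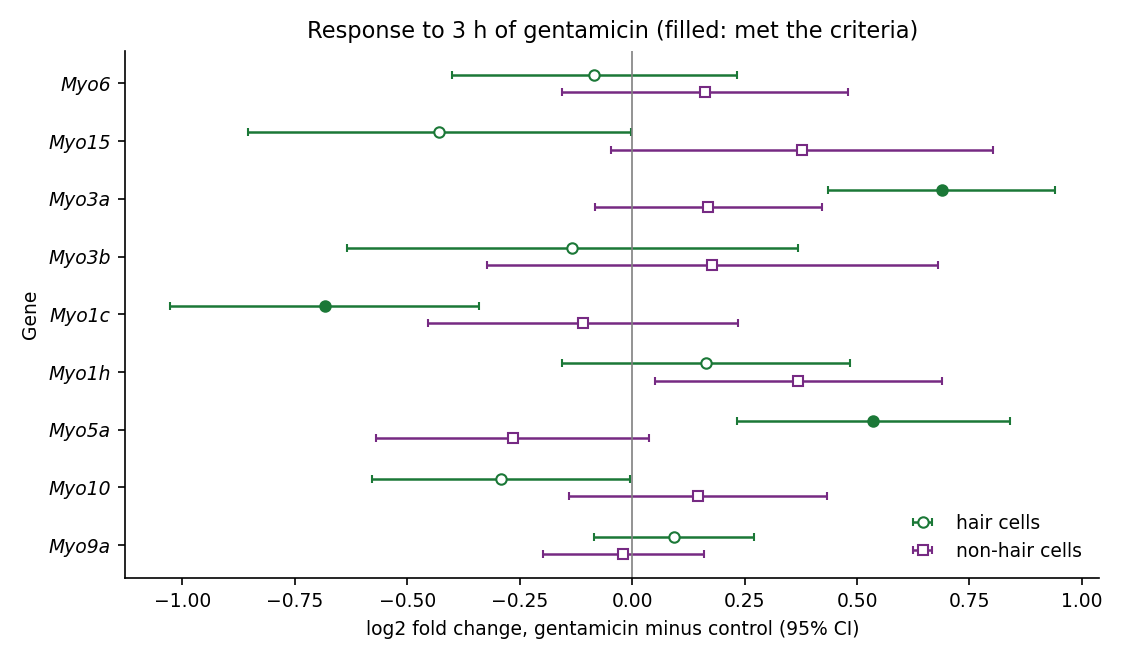
Change in log2 score after 3 h of gentamicin for each myosin gene, with 95% confidence intervals from limma, circles for hair cells and squares for non-hair cells, filled where the criteria were met. Filled circles mark Myo3a (0.69), Myo5a (0.54) and Myo1c (-0.68), and no square is filled.

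In the non-hair cells none of the 9 met the criteria, and neither did most genes: 5.45% of those tested were called, 512 rising and 364 falling, or 633 and 283 with scaling by total reads. At an adjusted p of 0.05, 0.342% of all genes and none of the 9 passed (limma). Myo1h was the one member with an unadjusted p under 0.05 (0.37 ± 0.15, unadjusted 0.027, adjusted p = 0.23, limma), at scores of 2.02, 1.72 and 2.60 in control and 2.70, 2.78 and 2.59 after gentamicin.

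The myosins with higher levels in these cells gave small differences. Myo1c scored 72.8, 72.0 and 72.6 after gentamicin, slightly under its control replicates without overlap, as for 17.7% of all genes, and its change was -0.11 (95% interval -0.45 to 0.24). Myo5a scored 96.9, 83.4 and 110 (-0.27), Myo10 scored 100.3, 107 and 121 (0.15), and Myo9a scored 104, 88.6 and 105 (-0.020). These groups overlapped with control. Myo6 scored 207, 285 and 190 (0.16), and without NHC gentamicin replicate 2, the library with the high mesenchyme sum, its change was -0.012.

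Whether hair cells and non-hair cells responded differently was tested as an interaction. One of the 9 passed an adjusted p of 0.05, where 13.4% of all genes did, 6.85% with a higher response in hair cells. This was Myo5a, with a change of 0.54 in hair cells and -0.27 in non-hair cells, a difference of 0.80 (95% interval 0.37 to 1.23, adjusted p = 0.022, limma). The 5 neuron markers summed to 542, 1447 and 1292 in NHC control and to 533, 246 and 990 in NHC gentamicin. None of the 5 met the criteria there, and the part of neurons in the Myo5a difference was not tested. Over all genes 1102 were higher and 1056 lower in the interaction test, or 1500 and 716 with scaling by total reads. The Myo5a call was lost without HC control replicate 1, HC control replicate 3, HC gentamicin replicate 2 or NHC control replicate 2, where the difference was 0.74 to 0.79 (adjusted p = 0.054 to 0.058, limma).

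For Myo15 the difference of responses was -0.81 (95% interval -1.41 to -0.20, adjusted p = 0.074, limma), for Myo1c -0.57 (adjusted p = 0.11) and for Myo10 -0.44 (adjusted p = 0.14). For Myo3a it was 0.52 (adjusted p = 0.057), but with 0 to 8 reads in each NHC library its sign turned with an offset of 0.1 (-0.31) and with voom weights (-1.52). The Myo3a rise in hair cells is therefore not shown to differ from the non-hair cells.

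Beside these 9, 13 other tested unconventional myosins were followed, and in hair cells 2 of them fell and none rose, a share close to the 14.8% of all tested genes that fell. They were Myo19 (-0.57 ± 0.085, adjusted p = 0.00068), the motor of mitochondria, and Myo9b (-0.38 ± 0.064, adjusted p = 0.0013, limma), the class partner of Myo9a. The same 2 passed the interaction test, by -0.71 and -0.38, where 13.4% of all genes passed. The median over the 13 was -0.096, against -0.086 for all genes. Myo7a, given as a reference, scored 1657 ± 72.6 in HC control and 1384 ± 68.5 after gentamicin (SD, n = 3), a change of -0.26 that did not meet the criteria. The spread in that fit is shared with the NHC libraries. There the SD of Myo7a reads was 32.1% of the mean in control and 56.8% after gentamicin. The missed call therefore does not show that Myo7a held its level.

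**Figure D5:**
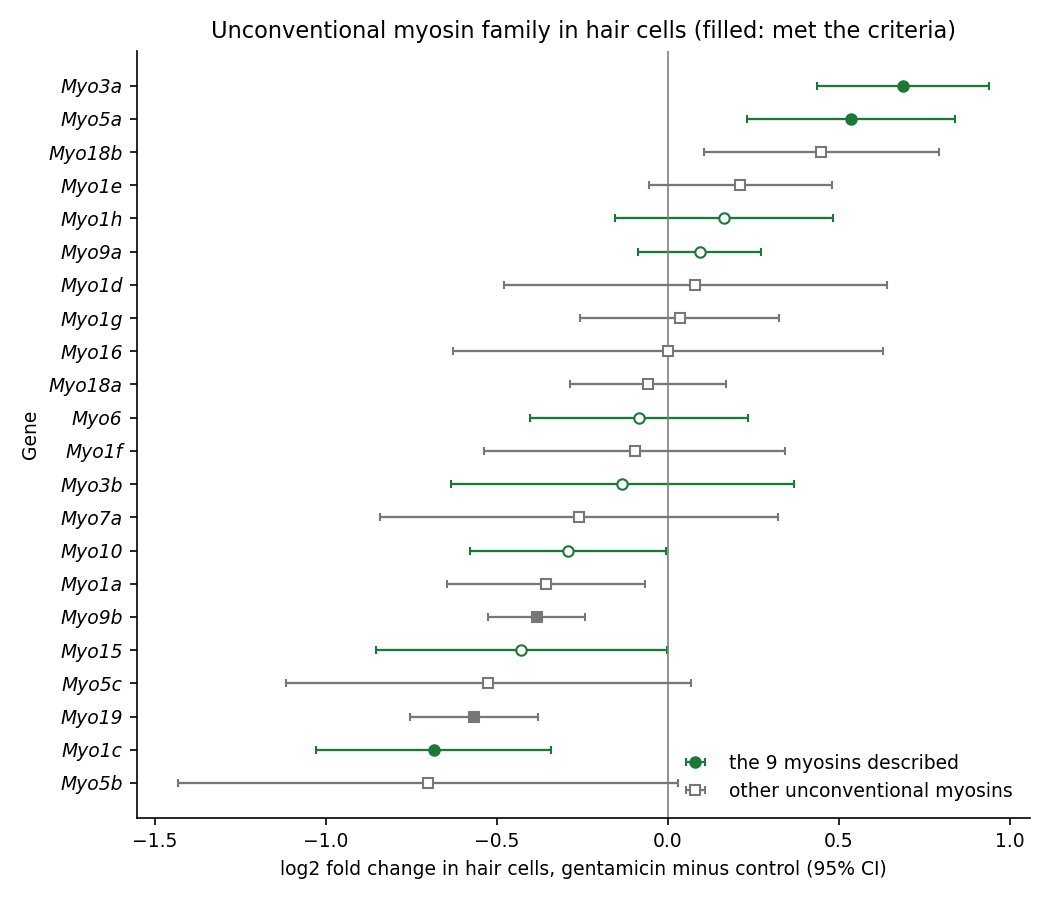
Change in log2 score in hair cells after gentamicin for the 9 myosins described (green circles) and 13 other tested unconventional myosins (grey squares, Myo7a among them), with 95% confidence intervals from limma, filled where the criteria were met. Myo3a and Myo5a are the 2 filled points to the right of 0, and Myo1c, Myo19 and Myo9b are the 3 filled points to the left.

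Chains of conventional nonmuscle myosin II, the contractile myosin of cell junctions, showed 3 falling genes of 7 in hair cells and none rising, with a median of -0.26, against 14.8% falling and a median of -0.086 over all genes. Myh10 (-0.49), Myh9 (-0.43) and Myl12b (-0.40) were those called. In control, Myh10 scored 116 in hair cells and 259 in non-hair cells, Myh9 scored 213 and 266, and Myl12b scored 158 and 148, and the part of other cells in these changes was not tested. Of the calmodulin and light chain genes, which supply the neck of the motors, 1 of 6 fell, Calm3 (-0.33). In non-hair cells Dynll1, a light chain of myosin V and dynein, rose by 0.52 on the log2 scale (unadjusted p = 0.0081, adjusted p = 0.15, limma), the only called gene of those lists there.

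Among the 4 genes whose products travel with myosin XVA, Gnai3 (0.64 ± 0.074, adjusted p = 0.00016) and Gpsm2 (0.37 ± 0.069, adjusted p = 0.0022, limma) rose in hair cells, and Whrn (0.17) and Eps8 (-0.29) were not called. Over all tested genes 12.7% rose and 14.8% fell. Gnai3 and Gpsm2 encode the G protein subunit and its partner at the tips of the tallest stereocilia. Of the 3 cargo genes of class III myosins, Morn4, which binds the tail of myosin IIIA, fell by 0.41 on the log2 scale, and Espn (0.26) and Espnl (-0.15) were not called.

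Adaptors of myosin VI, which link the motor to endosomes and autophagosomes, had 5 of 8 genes falling and none rising, with a median of -0.33, against 14.8% falling and a median of -0.086 over all genes. The 4 with the most negative changes were Lmtk2 (-0.92 ± 0.18), a kinase that binds the tail, Dab2 (-0.79 ± 0.20), an endocytic adaptor, Optn (-0.61 ± 0.16), the autophagy receptor optineurin, and Calcoco1 (-0.35 ± 0.086). In HC control Dab2 scored 4.13 against 106 in NHC control, and Optn scored 3.95 against 25.3, from 51.0 to 85.0 reads in each HC control replicate. The part of other cells in their changes was not tested. Myo6 itself did not pass the test.

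Of the 5 stereocilia base genes, Tprn (taperin) fell by 0.32 on the log2 scale, and of the 7 transport partners of myosin Va, Myrip fell by 0.74. Each was the only called gene of its list, where 14.8% of all tested genes fell. Myrip had a mean of 33.7 reads per replicate in HC control and 11 in HC gentamicin. It scored 2.47 in HC control against 10.3 in NHC control, and the part of other cells in its change was not tested. Neither of the 2 myosin chaperones was called.

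Across the 12 replicates the hair cell myosins followed one another closely, with Pearson's r of 0.99 or more among Myo6, Myo15, Myo3a, Myo3b and Myo1h. These correlations describe the split between the populations, since all 12 libraries enter and 440 to 574 genes had r over 0.99 with each of the 5. The nearest genes were Ik, Dnaic2 and BC030867 for Myo6, Rprm, Grk1 and Espnl for Myo15, Nhlh1, Xirp2 and Gm1322 for Myo3a, Espnl, Slc52a3 and Tmem255b for Myo3b, and Lmod1, Cxcl14 and Dscaml1 for Myo1h. Espnl, which encodes a class III cargo, was thus near both Myo3b and Myo15.

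Myo1c ran the opposite way (r = -0.98 with Myo6), nearest to Csrp1, Eva1c and Oat. Myo5a had 1 gene with r over 0.99, Vps37b (r = 0.99), a subunit of an endosomal sorting complex, followed by Cish and Dctn4 (a dynactin subunit) at 0.98. Myo10 was nearest to Ctnnd1, Ccnd1 and Arhgef26 (0.98 to 0.99), and Myo9a to Crhr1, Nfe2 and Ihh (0.84 to 0.88). The 2 last genes, with no large population gap, had no gene with r over 0.99.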

How the data were processed

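The authors sequenced 50 bp single-end reads from TruSeq mRNA libraries, trimmed them, aligned them to mm10 with TopHat2 (per the submitters' notes and the study's methods) in PartekFlow, and deposited a signal per gene and replicate. The deposited signal is a read score scaled per replicate, with an offset of 1 and no division by gene length, and the scaling factor is not given in the sources used here. The study's methods name RPKM, which divides by gene length; the deposited values are read otherwise here, because within a replicate 1 read was worth the same step for most genes. Reads were estimated by taking off 1 and dividing by the smallest step, and 77.1% to 78.9% of values up to 50 reads came out whole within 0.05. The 95% intervals are from limma and rest on the spread between replicates, while the floor of 3 reads covers counting error only.

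Log2 scores of the 16088 genes with at least 100 estimated reads were fitted with limma 3.58.1 (R 4.3.3), 4 groups in 1 model, empirical Bayes with a trend, all two-sided, with Benjamini-Hochberg adjustment. Gentamicin contrasts used p under 0.01 with fold over 1.2, as in the study, and the others an adjusted p under 0.05. Error terms after ± are SE for log2 differences. The fit was run on simulated reads with the same spread setting for every gene and group, and only the gentamicin contrasts were scored. That run cannot show how the fit behaves where the spread differs between hair cells and non-hair cells. Exon lengths and positions came from GENCODE M21, and upstream sequences from RefSeq, where all 9 genes matched. Exact permutation tests used scipy 1.17.1, tables pandas 2.3.3 and figures matplotlib 3.10.9.

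The members were chosen by name, not by a threshold on a value, but they and the gene lists were chosen with earlier results of these data known. Named were all 9 members, Myo7a as a reference, up to 4 called genes per list and contrast with the greatest absolute change, and the 3 genes nearest each member by Pearson's r. 1 gene and 1 gene list of the design are not reported here. Kctd10 was named for its shared bases. The sequencing lane of each library is not given in the sources used here. The replicates are called biological in the study, and no pair was alike within noise (median absolute log2 difference 0.10 to 0.24). Replicate numbers paired HC control with NHC control (r of deviations 0.22, 0.32 and 0.20) but not the other comparisons. Scaling, offset, filter, weights, block, thresholds and left-out replicates were tried as alternatives.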

Additional observations from a re-analysis of the deposited data

Results flagged for a closer look

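Myo5a was picked out because its responses to gentamicin differed between the populations in the test of that difference: hair cells minus non-hair cells gave 0.80 on the log2 scale (95% interval 0.37 to 1.23, adjusted p = 0.022, limma). It was higher in 3 of 3 treated hair cell replicates than in any control replicate, while the non-hair cell groups overlapped.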

How the results depend on the processing

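Of 855 values for single genes under alternatives, 802 kept direction and side of the threshold, 26 lost a call, 16 gained one and 11 turned sign. The cause of these shifts was not tested. The interaction count of 1 of 9 became 2 with scaling by total reads, with a minimum of 1000 reads or with no variance trend, 3 with an offset of 5, 0 at an adjusted p of 0.01 or with a fold over 2, and 0 to 2 with a replicate left out. The non-hair cell count of 0 became 0 to 1 with a replicate left out. With the replicate block, 4 myosins passed the interaction test (Myo15, Myo3a and Myo10 joined Myo5a), and 4 met the criteria in hair cells (Myo10 joined, adjusted p = 0.010, limma). The replicate numbers do not pair the 2 hair cell groups (r of 0.04 to 0.05). The interaction also uses the non-hair cells. There the r for replicates 1, 2 and 3 was 0.22, 0.32 and 0.20 between HC control and NHC control. It was 0.38, -0.039 and -0.018 between the treated populations and 0.21, -0.23 and 0.68 between the NHC groups. Whether the block suits the interaction was not tested. The block changed no count in the other 3 comparisons.

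Sign changes, none of them in a called value, were Myo6 in hair cells (0.013) and Myo9a in non-hair cells (0.0037) with scaling by total reads, Myo3a in the interaction with an offset of 0.1 (-0.31) or voom weights (-1.52), Myo1h there with an offset of 5 (0.025), and Myo9a between the treated populations with median-of-ratios scaling (0.052). With a replicate left out, non-hair cell changes ranged from -0.012 to 0.28 for Myo6, -0.14 to 0.38 for Myo3b and -0.065 to 0.059 for Myo9a, and the Myo3b interaction from -0.51 to 0.010.

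Over all genes, the 4418 hair cell calls became 2074 with a fold over 1.5. The 876 non-hair cell calls became 383 with the 2 groups alone, 219 with a fold over 1.5, 55 at an adjusted p of 0.05, and 411 (without NHC control replicate 2) to 1571 (without NHC gentamicin replicate 3). The 2158 interaction calls became 601 at an adjusted p of 0.01, 358 with a fold over 2, and 1160 (without HC control replicate 2) to 2377. Population calls with a fold over 2 were 5804 of 11911 in control and 6508 of 12566 after gentamicin.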
